A study of Mus musculus with 11 samples.

Results

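The immediate-early transcription factors described here are 9 genes, namely Fos, Fosb, Fosl2, Jun, Junb, Jund, Egr2, Nr4a1 and Nr4a2, taken by name from a set of such factors. Every probe set annotated to one of these symbols was used, which gave 12 of the 10833 probe sets that name a gene, and 9 of the 8251 genes named. A probe set is the group of short DNA probes on the array that reports 1 transcript. Of the 12, 11 passed the filter on weak signals and were tested, and these cover all 9 genes.

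The series measured RNA from whole brains of untreated mice of strain C57BL/6J, with 1 Affymetrix array per brain. The 5 null mice are deficient in β4, a subunit of nicotinic receptors, which are neuronal ion channels opened by acetylcholine. They comprise 2 males, both 9 weeks old, and 3 females aged 7 to 8 weeks. The 6 wild-type mice are described as littermates and comprise 4 males and 2 females aged 6 to 9 weeks. The numbers of all 5 null mice and of 3 wild-type mice begin with the letters B4, and those of the other 3 wild-type mice, all 6 weeks old, begin with LT. What the letters stand for is not given in the sources used here. The labels name no cell type or induction for the mutation and do not say whether it was backcrossed to C57BL/6J, nor do they give the time of day at which brains were taken. The array has no probe set named for the disrupted gene, so the genotype labels could not be checked against it.

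Immediate-early genes are transcribed within minutes of a stimulus, without new protein synthesis, because the factors that switch them on already sit at their promoters and are activated by calcium and kinase signalling. Fos-family and Jun-family proteins pair through leucine zippers to form AP-1, which binds DNA and sets the later response. Egr2 is a zinc-finger factor and the Nr4a proteins are orphan nuclear receptors, and in neurons their RNA, like that of Fos, is widely used as a trace of recent activity.

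Both male null arrays stood apart from the other 9. The signal of Gapdh probes at the 3′ end over that at the 5′ end, a measure of how far labelled RNA runs along the transcript, was 0.859 and 0.798 on them, against 2.19 to 3.58 on the female null arrays and 3.57 to 5.92 on the wild-type arrays. Their median signals were 58.3 and 56.3, against 46.3 to 46.8 on the female null arrays and 43.6 to 49.75 on the wild-type arrays. Most markers of neurons were higher on the male null arrays. In null against wild-type males 10 of 12 neuronal genes had a log2 difference above 0. Before adjustment (limma) 9 were higher and 1 lower. After adjustment 8 were higher and 0 lower, where 32.6% of all tested probe sets passed in either direction. The summed signal of 12 neuronal genes was 17702 and 17731 on the male null arrays and 13231 to 15165 on the wild-type arrays, and the median log2 difference of these genes between null and wild-type was 0.38 with all brains and -0.01 without the male null brains. Before adjustment (limma) 7 of the 12 were higher and 0 lower in null brains, where 13.4% of all tested probe sets were higher and 9.69% lower. Without the male null brains 1 was higher and 0 lower, where 3.54% of all were either. Of the list, 12 of the 13 neuronal genes on the array passed the signal filter. The summed signal of 11 astrocyte genes was 14759 to 17025 in null brains and 15428 to 16860 in wild-type brains. The median log2 difference was -0.03 for the astrocyte genes, 0.22 for 9 oligodendrocyte genes and 0.35 for 9 microglial genes with all brains. It was -0.06 for the astrocyte genes without the male null brains, and the sign then turned to -0.30 for the oligodendrocyte genes and -0.11 for the microglial genes. The summed signal of 4 choroid plexus and ependymal genes was 1438 to 1521 on the male null arrays and 1929 to 2915 on the wild-type arrays. Their median log2 difference was -0.22 with all brains and 0.32 without the male null brains. The part of these differences in the results that follow was not tested. In whole brain, a change in the number of cells that express a gene and a change in RNA per cell cannot be told apart. The genotype comparison is therefore given with and without the male null brains. Without them its estimate rests on the female brains alone, because sex is a covariate. Signals are linear values from MAS5, the Affymetrix method that combines the probes of a probe set. Levels are compared between brains within a probe set. The sums over markers weigh bright probe sets most. Otherwise probe sets were compared by signal only to filter them, to rank them and to pick the brightest of a gene.

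Fos encodes c-Fos, the best known activity marker of the group (chr12:85473890-85477274, GRCm38.p6). Its probe set 160901_at had signals of 402.5, 487.1, 314.3, 442.7 and 140.9 in null brains 1 to 5, of which the first 2 are the males. The 6 wild-type brains spanned 197.3 to 408.4 with a median of 322.25. The groups overlapped widely, and the lowest brain of all, the female null 5, had 3.46-fold less signal than the highest, the male null 2. The other Fos probe set, 161716_at, had signals of 14.5, 2.5, 9.3, 15.2 and 8.0 in null brains and 1.5 to 15.6 with a median of 8.25 in wild-type brains, which is close to the floor of 3.1, and it was not tested.

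Fosb encodes FosB, whose truncated form accumulates in neurons under repeated stimulation (chr7:19302696-19310118). It had signals of 142.0, 165.3, 134.0, 125.0 and 87.5 in null brains, against 94.3 to 154.3 with a median of 117.6 in wild-type brains. The null range contained the wild-type range. Fosl2 encodes Fra-2, a Fos relative without the strong activation domain of c-Fos (chr5:32136472-32157840). Its signals were weak, at 16.3, 43.0, 39.1, 11 and 44.9 in null brains and 20.4 to 45.9 with a median of 40.1 in wild-type brains. The groups overlapped. The male null 1, the female null 4 and both wild-type females were low, and the other 7 brains lay between 39.1 and 45.9.

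Jun encodes c-Jun, the main AP-1 partner of Fos proteins (chr4:95049036-95052222). It had signals of 141.0, 153.8, 153.9, 168.7 and 141.7 in null brains, against 148.3 to 210.8 with a median of 177.3 in wild-type brains. The male null 1 and the female null 5 were below the lowest wild-type brain, and no null brain reached the wild-type median. Junb encodes a Jun protein that activates weakly and can restrain c-Jun (chr8:84976909-84978748), and it has a pair of probe sets. On 102363_r_at the signals were 126.4, 152.4, 89.7, 81.5 and 90.1 in null brains and 44.6 to 125.1 with a median of 69.5 in wild-type brains. On 102362_i_at they were 144.2, 160.8, 36.5, 66.0 and 29.2 in null brains and 20.4 to 122.2 with a median of 56.2 in wild-type brains. On both probe sets the male null brains were above every other brain, and the female null brains lay within the wild-type range.

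Jund encodes the Jun protein that is made steadily and responds least to stimulation (chr8:70697739-70700616). Its signals were 2845, 2080, 2472, 3494 and 2907 in null brains, against 3115 to 4765 with a median of 3999 in wild-type brains. All null brains but the female null 4 were below the lowest wild-type brain, the female wild-type 5.

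Egr2 encodes a zinc-finger factor known for hindbrain segmentation and peripheral myelination as well as for rapid induction (chr10:67534469-67542188). It had signals of 107.4, 125.8, 89.3, 124.4 and 55.2 in null brains, against 72.7 to 186.7 with a median of 104.75 in wild-type brains. The groups overlapped, with null 5 lowest and wild-type 4 highest. Nr4a1 encodes Nur77, an orphan nuclear receptor induced by depolarisation and growth factors (chr15:101253902-101274795). Its signals were 283.6, 333.6, 234.1, 276.3 and 147.2 in null brains and 169.3 to 303.1 with a median of 209.15 in wild-type brains. The lowest brain was again null 5.

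Nr4a2 encodes Nurr1, needed for midbrain dopamine neurons and also induced by activity (chr2:57106830-57124003). On its probe set 92248_at the signals were 96.5, 129.1, 43.4, 42.1 and 37.9 in null brains, against 19.7 to 52.8 with a median of 35.55 in wild-type brains. On 92249_g_at they were 58.3, 62.0, 32.0, 23.2 and 31.1 in null brains and 14.7 to 42.5 with a median of 29.55 in wild-type brains. On both, the male null brains were above all others, and the female null brains lay within the wild-type range. On 92248_at, however, the wild-type brains with B4 numbers spanned 19.7 to 32.8 and those with LT numbers 38.3 to 52.8. The female null brains, all with B4 numbers, were above every B4 wild-type brain there. On 92249_g_at the B4 wild-type brains spanned 14.7 to 42.5. The part of letters or age in this was not tested.

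**Figure D1:**
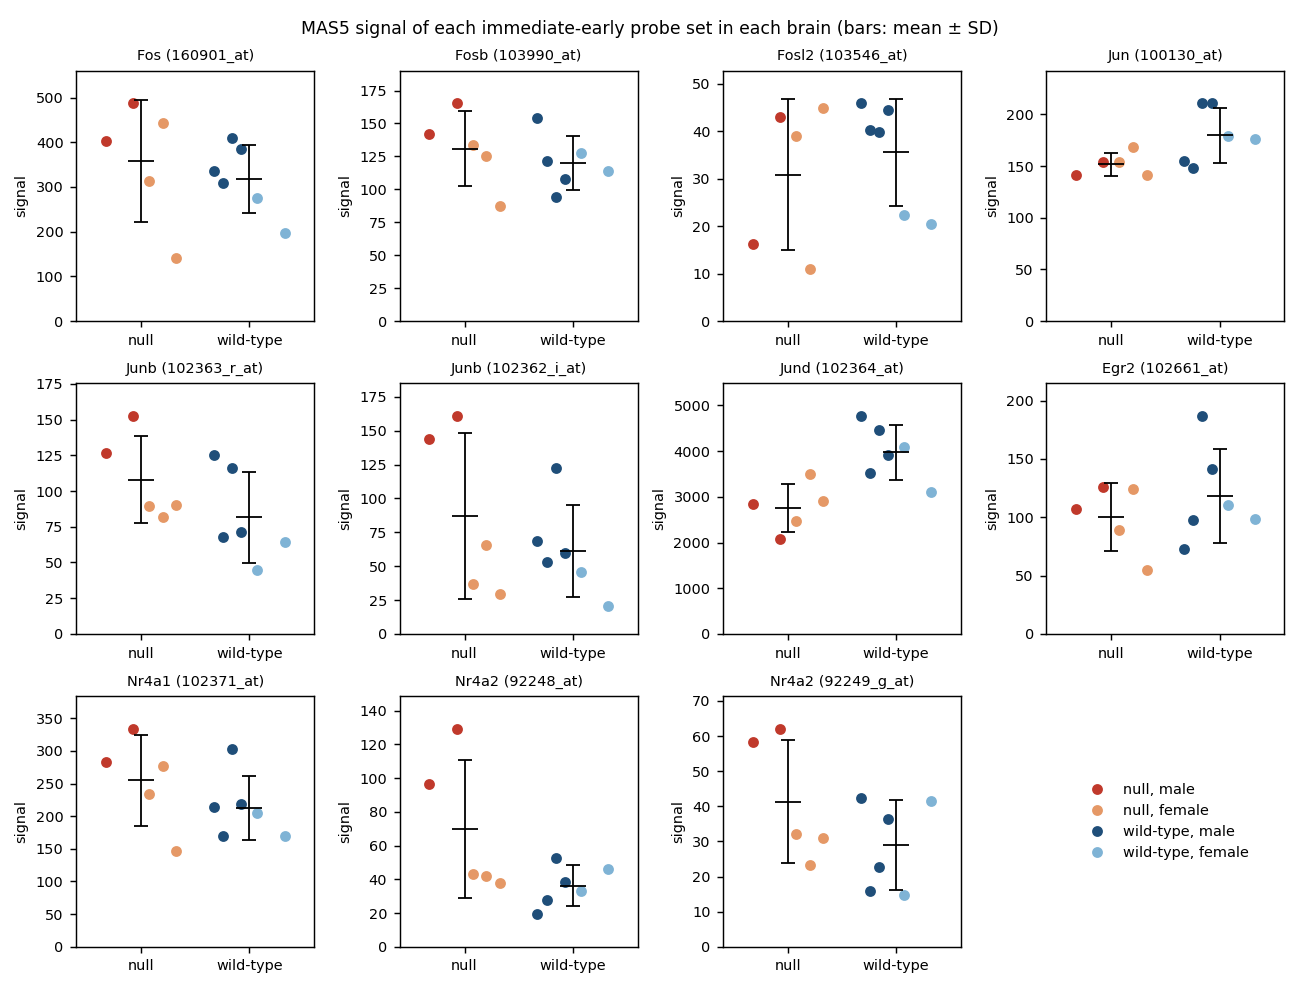
MAS5 signal (linear, from 0) of the 11 tested probe sets in each brain, with null left of wild-type, males dark and females light, and bars for mean ± SD of each genotype (n = 5 null, n = 6 wild-type). The male null brains lie above all others for both Junb and both Nr4a2 probe sets, and no probe set separates the genotypes fully.

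Null brains were compared with wild-type brains to ask which of these factors differ when the β4 subunit is missing. None of the 11 probe sets passed an adjusted p of 0.05 (limma with sex as a covariate, Benjamini-Hochberg adjustment over 7453 probe sets), where 0.0268% of all tested probe sets passed. Before adjustment 4 of 11 were under 0.05, against 23.1% of all tested probe sets, so the members' share is read against a high background. Of those 4, both Junb probe sets and Nr4a2 92248_at were higher in null brains, where 13.4% of all were, and Jund was lower in null brains, where 9.69% of all were. Over all 11 brains no member probe set separated the genotypes without overlap, where 1.09% of all did.

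Jund averaged 2760 ± 527 in null brains and 3975 ± 604 in wild-type brains (SD, n = 5 and n = 6), a log2 difference of -0.54 ± 0.16 (SE, limma adjusted p = 0.101). Junb 102363_r_at averaged 108 ± 30.3 in null brains and 81.6 ± 31.8 in wild-type brains, a log2 difference of 0.65 ± 0.20 (limma adjusted p = 0.109). Nr4a2 92248_at averaged 69.8 ± 41.0 in null brains and 36.3 ± 12.1 in wild-type brains, a log2 difference of 0.97 ± 0.35 (limma adjusted p = 0.138). Among the alternatives tried these 3 differences passed the adjusted threshold only when wild-type 5 was left out, at -0.66, 0.73 and 1.26, in a fit in which 877 of 7453 probe sets passed. Without that brain the female wild-type side holds 1 mouse. Over the 9 brains other than the male null ones, Jund had r = -0.593 (exact permutation p = 0.0888, adjusted p = 0.799 over 18 relations) and rho = -0.750 (exact permutation p = 0.0255, adjusted p = 0.229) with the log2 ratio of Gapdh 5′ over 3′ signal, and its r was -0.837 without null 4 and wild-type 4, -0.536 within the 6 brains of B4 animals and -0.07 with genotype and sex removed.

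For the other members the 95% intervals of the log2 difference included 0. They ran from -0.26 to 0.79 for Fos, from -0.23 to 0.55 for Fosb, from -1.08 to 0.67 for Fosl2 and from -0.54 to 0.06 for Jun. They ran from -0.71 to 0.42 for Egr2 and from -0.08 to 0.75 for Nr4a1. These intervals bound the difference and do not show that the levels are alike, and the sign turned under some of the alternatives tried for Fos, Fosb, Fosl2 and Egr2. The second Nr4a2 probe set, 92249_g_at, had 0.70 ± 0.36 (limma adjusted p = 0.264), with an interval from -0.09 to 1.48 that included 0. The second Junb probe set, 102362_i_at, had 0.78 ± 0.31 (limma adjusted p = 0.165), with an interval from 0.12 to 1.45. Over the 11 probe sets the median log2 difference was 0.26, against 0.03 over all tested probe sets.

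With the male null brains left out and sex as a covariate, the estimate is that of 3 null females against 2 wild-type females. The 4 wild-type males then enter only the variance. Without the male null brains 0 of 11 passed the adjusted threshold (0% of all). Before adjustment 1 of 11, Junb 102363_r_at, was under 0.05, where 3.54% of all tested probe sets were. Its log2 difference was then 0.70 ± 0.30 (limma adjusted p = 0.999), while Nr4a2 92248_at had 0.08 ± 0.41, Jund -0.29 ± 0.18 and Junb 102362_i_at 0.44 ± 0.46. Fos had 0.21 ± 0.37, Fosb -0.083 ± 0.25, Fosl2 0.33 ± 0.53, Jun -0.20 ± 0.20, Egr2 -0.30 ± 0.39, Nr4a1 0.19 ± 0.28 and Nr4a2 92249_g_at 0.20 ± 0.55. The median of the 11 was 0.19, against 0.02 over all tested probe sets. With the Gapdh ratio as a covariate 4.66% of all tested probe sets were under 0.05 before adjustment, and 1 of 11 members was, Junb 102363_r_at at 0.89 ± 0.33. In that fit Nr4a2 92248_at had 0.015 ± 0.51, Jund -0.21 ± 0.23 and Junb 102362_i_at 0.42 ± 0.52. Among the 8 brains of the B4 animals the log2 difference was 1.43 for Nr4a2 92248_at, -0.64 for Jund and 0.75 for Junb 102363_r_at. There 0 of 11 passed the adjusted threshold, where 0.349% of all did. In those brains Jund spanned 2080 to 3494 in null and 3516 to 4765 in wild-type mice. Nr4a2 92248_at spanned 37.9 to 129.1 and 19.7 to 32.8, so neither overlapped. The share of all tested probe sets without overlap among B4 animals was not computed.

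A model with genotype and sex together gave the difference within each sex. In males 2 of 11 probe sets passed the adjusted threshold, where 32.6% of all tested probe sets passed. Nr4a2 92248_at rose in null males, by 1.78 ± 0.36 on the log2 scale (limma adjusted p = 0.00253), and Jund fell, by 0.76 ± 0.18 (limma adjusted p = 0.0066). Both null males are the arrays with the low Gapdh ratio. With that ratio as a covariate the male differences were 2.61 for Nr4a2 92248_at (limma adjusted p = 0.681) and -0.53 for Jund (limma adjusted p = 0.852), and neither passed. For Jund the call was also lost without null 2 (log2 difference -0.54, limma adjusted p = 0.119). Of the 11 probe sets, 5 set the male null brains apart from all wild-type brains without overlap, namely both of Junb and both of Nr4a2 above and Jund below, where 41.6% of all did. The 4 probe sets of Junb and Nr4a2 also set them apart from all 9 other brains, where 37.2% of all did. In females 0 of 11 passed the adjusted threshold (0% of all). Before adjustment 1 of 11 was under 0.05, Junb 102363_r_at at 0.70 ± 0.29, where 4.13% of all were. Each female difference equals the one given without the male null brains, so it is not a separate estimate.

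The difference between the sexes in the genotype effect was itself tested. For Nr4a2 92248_at the female difference minus the male difference was -1.70 ± 0.52 (limma adjusted p = 0.0435), 1 of 11 members against 15.9% of all tested probe sets. The other Nr4a2 probe set had -0.94 ± 0.69 (limma adjusted p = 0.392). The call for 92248_at was lost under quantile normalisation, under median centring, without the signal filter, with the Gapdh ratio as a covariate, and when any of 8 of the 11 brains was left out (adjusted p from 0.00585 to 0.581 over all alternatives).

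**Figure D2:**
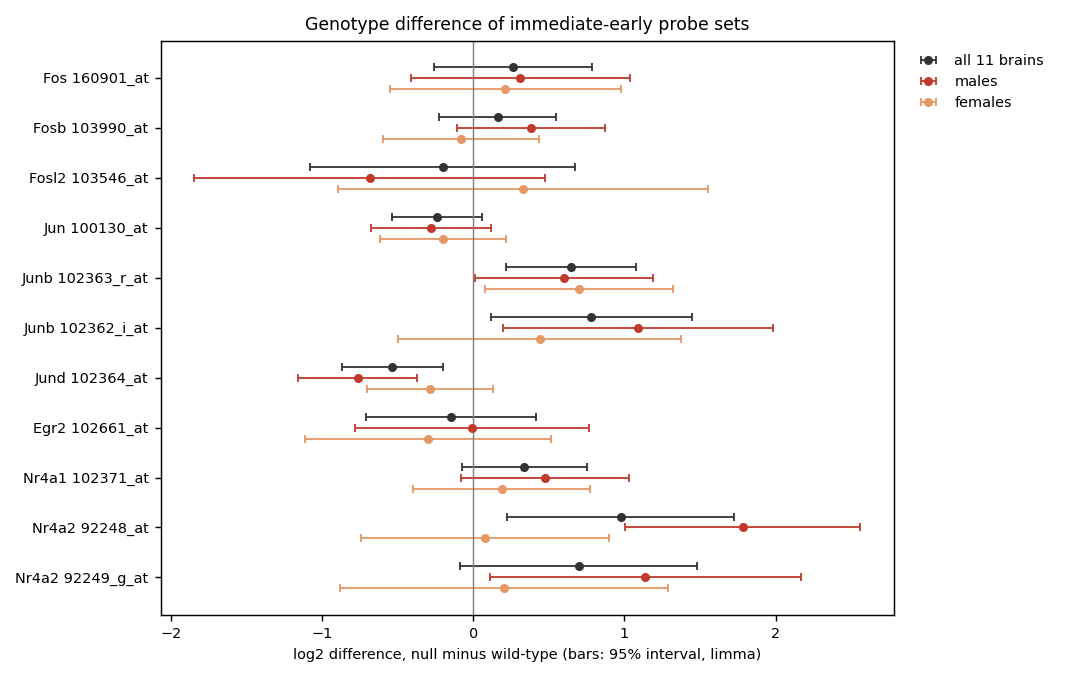
Log2 difference of null minus wild-type with its 95% interval (limma) for each tested probe set, over all 11 brains with sex as a covariate (black), in males (dark red) and in females (orange). Intervals in males lie clear of 0 for Jund, both Junb and both Nr4a2 probe sets, and in females for Junb 102363_r_at alone.

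Females were compared with males over both genotypes. None of the 11 probe sets passed the adjusted threshold, nor did any of the 7453 (limma with genotype as a covariate; 0% of all), and 926 of 7453 were under 0.05 before adjustment. Of the members, 3 of 11 were under 0.05 before adjustment, where 12.4% of all tested probe sets were. All 3 were lower in females, where 7.54% of all were. Fos had signals of 314.3, 442.7 and 140.9 in null females and 274.5 and 197.3 in wild-type females, against 309.9 to 487.1 with a median of 393.35 in the 6 males. Its log2 difference was -0.66 ± 0.24 (limma adjusted p = 0.330). Junb 102362_i_at averaged 39.5 ± 17.5 in females and 101 ± 46.9 in males (SD, n = 5 and n = 6), a log2 difference of -1.54 ± 0.31 (limma adjusted p = 0.261). For Junb 102363_r_at the difference was -0.72 ± 0.20 (limma adjusted p = 0.261). For the other 8 probe sets the log2 differences ran from -0.59 for Nr4a2 92249_g_at to 0.03 for Jun. Females and males overlapped for every member, while 0.403% of all tested probe sets did not overlap. Without the male null brains the log2 differences were -0.62 for Fos, -1.23 for Junb 102362_i_at and -0.77 for Junb 102363_r_at. Before adjustment 2 of 11 were then under 0.05, against 8.88% of all. With genotype as a covariate these estimates are those of 2 wild-type females against 4 wild-type males, and the null females enter only the variance.

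Since these genes follow recent stimulation, the spread between untreated wild-type brains was set beside that of other probe sets of similar signal, namely the tested probe sets in the same bin when all were ranked by mean signal and split into 10 bins of equal size. The SD of the log2 signal over the 6 wild-type brains was 0.84 for Junb 102362_i_at, 2.48 times the median of its bin and above 95.8% of it. For Junb 102363_r_at the SD was 0.56, above 90.1% of its bin. Egr2 had an SD of 0.47, above 85.0% of its bin, and Fos had 0.38, above 84.6%. Nr4a1 was nearer the middle, with 0.31 and 71.1%. Jun and Fosb varied less than the median of their bins, with SDs of 0.21 and 0.24, above 31.3% and 35.1%. Jund, at 0.22, lay above 58.7% of the brightest bin. Fosl2 lay above 51.6% of its bin, and Nr4a2 92248_at and 92249_g_at above 66.8% and 72.4%. The wild-type brains mix both sexes and both letters of the mouse numbers. Junb 102362_i_at averaged 75.7 in the 4 wild-type males and 33.0 in the 2 wild-type females, and Fos 359 and 236. The part of sex, letters, array or recent stimulation in the spread was not tested. These values describe the spread and carry no test.

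Co-variation between single brains was examined over the 9 brains other than the male null ones, with the brightest tested probe set of each gene. Among the 36 pairs of genes 21 had a positive and 15 a negative Pearson correlation, with a median r of 0.163. After adjustment over the 36 pairs, 2 correlations passed 0.05, Fos with Nr4a1 and Jun with Egr2. Before adjustment 4 were under 0.05, the added ones being Fos with Egr2 and Egr2 with Nr4a1. The same shares over all pairs of tested probe sets were not computed. Whether these counts exceed those of other pairs on these arrays is therefore not known.

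Fos and Nr4a1 had r = 0.857 (exact permutation p = 0.00224, adjusted p = 0.0403) and Spearman's rho = 0.917 (exact permutation p = 0.00131, adjusted p = 0.0472) over 9 brains. Null 4 and wild-type 4 were the top 2 of the 9 brains for both genes, and null 5 and wild-type 5 the bottom 2 for both. Without null 5 and wild-type 5, the farthest from the median in Fos, r was 0.746 over 7 brains. Within the 6 brains of B4 animals r was 0.855, and after genotype and sex were removed from each gene it was 0.879. The male null brains, which were not used, also had the 1st and 4th highest Fos signals and the 1st and 3rd highest Nr4a1 signals of all 11 brains.

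Jun and Egr2 had r = 0.879 (exact permutation p = 0.00154, adjusted p = 0.0403) and rho = 0.867 (exact permutation p = 0.00451, adjusted p = 0.0812) over 9 brains. Wild-type 4 and wild-type 6 were the top 2 for both genes and null 5 the lowest for both. Without wild-type 4 and wild-type 6, r was 0.750 over 7 brains, and within the 6 brains of B4 animals it was 0.780. With genotype and sex removed it was 0.861.

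Fos with Egr2 had r = 0.732 (exact permutation p = 0.0255, adjusted p = 0.229) and rho = 0.633 (exact permutation p = 0.0760, adjusted p = 0.673), and its r was 0.591 without null 5 and wild-type 5 and 0.487 without null 5 alone. Within the 6 brains of B4 animals its r was 0.797. Egr2 with Nr4a1 had r = 0.743 (exact permutation p = 0.0213, adjusted p = 0.229) and rho = 0.633 (exact permutation p = 0.0760, adjusted p = 0.673), and without null 5 and wild-type 4 its r was 0.273, so it rests on those brains. Within the 6 brains of B4 animals its r was 0.697. The number of pairs past the adjusted threshold was 2 with all 9 brains or without wild-type 2, and 0 when any other of the 9 brains was left out. In those repeats r stayed between 0.796 and 0.930 for Fos with Nr4a1 and between 0.818 and 0.921 for Jun with Egr2. Correlations with the log2 ratio of Gapdh 5′ over 3′ signal and with the median signal of the array were 0.07 and 0.28 for Fos, 0.01 and 0.49 for Nr4a1, -0.36 and 0.08 for Jun, and -0.22 and 0.03 for Egr2, none past 0.05 after adjustment over 18 relations.

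**Figure D3:**
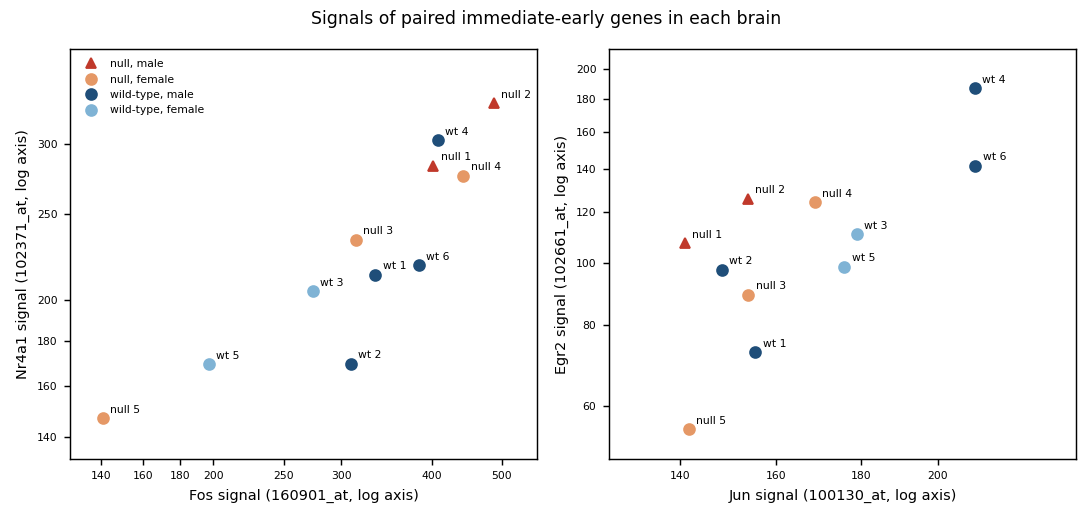
Signals of Fos and Nr4a1 (left) and of Jun and Egr2 (right) in each brain on logarithmic axes, with triangles for the male null brains, which were not used in the correlations. Over the other 9 brains r was 0.857 for Fos with Nr4a1 and 0.879 for Jun with Egr2, and null 5 had the lowest signal of all brains for Fos, Nr4a1 and Egr2.

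The members did not vary as 1 block. Fosb had an r of 0.39 with Fos and -0.62 with Nr4a2 92248_at, and Fosl2 had r values between -0.30 and 0.41 with the other brightest probe sets. Nr4a2 92248_at had r of 0.00 with Fos and 0.32 with its paralogue Nr4a1. None of these passed the threshold before adjustment.

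**Figure D4:**
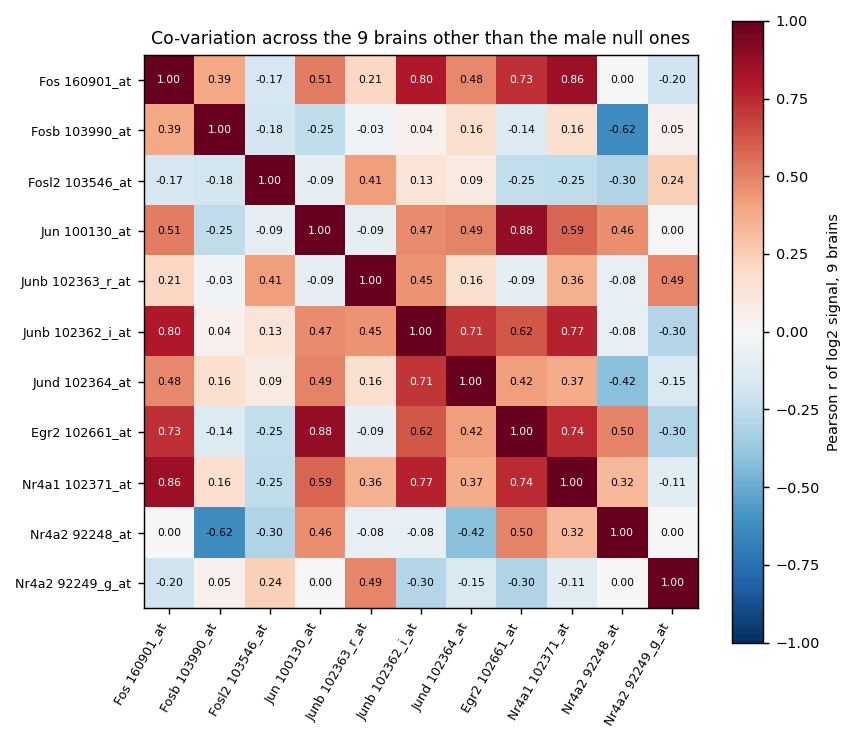
Pearson r of log2 signals over the 9 brains other than the male null ones, for all pairs of the 11 tested probe sets, from -1 (blue) to 1 (red). Among Fos, Egr2, Nr4a1 and Junb 102362_i_at, picked from this matrix, r ran from 0.62 to 0.86. Of their pairs only Fos with Nr4a1 passed adjustment. Jun with Egr2 had the highest r, 0.88, and Jund with Junb 102362_i_at had 0.71. The highest r of a Fosb, Fosl2 or Nr4a2 probe set with another gene was 0.50, for Nr4a2 92248_at with Egr2.

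The probe sets of a gene did not always go together. Over the 9 brains the pair for Junb had r = 0.45 and the pair for Nr4a2 had r = 0.00. Junb 102363_r_at followed the median signal of the array, with r = 0.945 (exact permutation p = 7.72e-05, adjusted p = 0.00139 over 18 relations) and rho = 0.933 (exact permutation p = 0.00075, adjusted p = 0.0135). Without wild-type 1 and wild-type 4 its r was 0.907 over 7 brains, and within the 6 brains of B4 animals 0.935. Junb 102362_i_at had r = 0.514 with the median signal (exact permutation p = 0.156) and rho = 0.550 (exact permutation p = 0.133), and without wild-type 1 and wild-type 4 its r was -0.145. It had r = 0.803 with Fos (exact permutation p = 0.00869, adjusted p = 0.104 over 36 pairs) and rho = 0.850 (exact permutation p = 0.00607, adjusted p = 0.0729). Without null 5 and wild-type 5 that r was 0.671, and within the brains of B4 animals 0.828. With Nr4a1 the i_at probe set had r = 0.767 (exact permutation p = 0.0163, adjusted p = 0.146) and rho = 0.733 (exact permutation p = 0.0311, adjusted p = 0.224), and with Jund r = 0.714 (exact permutation p = 0.0302, adjusted p = 0.155) and rho = 0.767 (exact permutation p = 0.0214, adjusted p = 0.193). The values of the genotype comparison for Junb 102363_r_at stand beside this relation, and its part in them was not tested.

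**Figure D5:**
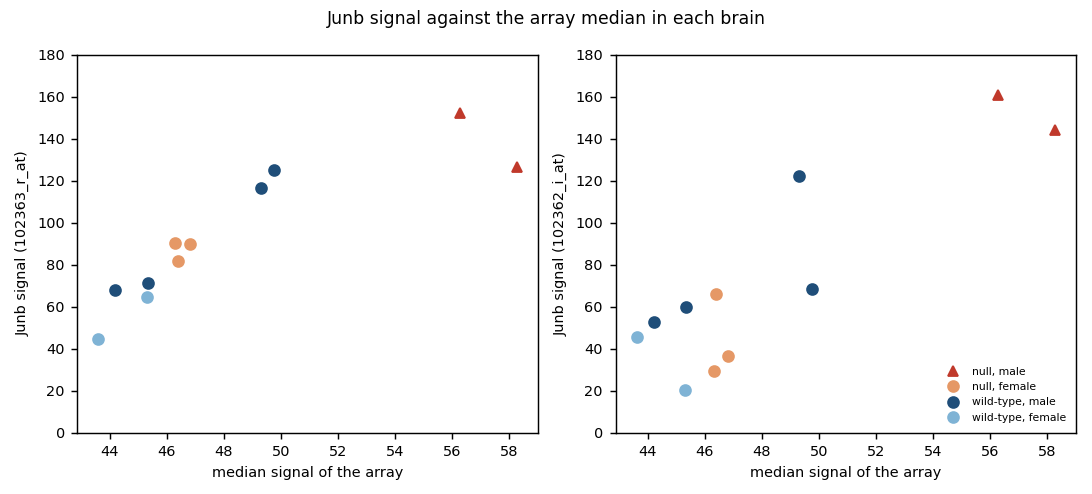
Signal of Junb probe sets 102363_r_at (left) and 102362_i_at (right) against the median signal of the same array, 1 point per brain, both linear, with triangles for the male null brains. Over the 9 other brains r was 0.945 on the left and 0.514 on the right.

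For Fos and Nr4a1, and for Jun and Egr2, the sequence before the annotated start is shown because these are the pairs that moved together between brains. Each is 250 bases long on the gene's own strand, from RefSeq on GRCm38.p6, at chr12:85473640-85473889 (plus strand) for Fos, chr15:101266596-101266845 (plus strand) for Nr4a1, chr4:95052223-95052472 (minus strand) for Jun and chr10:67537619-67537868 (plus strand) for Egr2, where entry 3 of 5 is shown, which overlaps entries 4 and 5. Those 3 entries hold the same motifs, while entry 2 holds a CArG box and no core, and entry 1 holds none of the motifs. The Nr4a1 and Egr2 windows lie inside the gene spans given above, so the starts they precede are internal to the annotated gene. Capitals mark matches to the motifs spelled out in the next paragraph.
Fos: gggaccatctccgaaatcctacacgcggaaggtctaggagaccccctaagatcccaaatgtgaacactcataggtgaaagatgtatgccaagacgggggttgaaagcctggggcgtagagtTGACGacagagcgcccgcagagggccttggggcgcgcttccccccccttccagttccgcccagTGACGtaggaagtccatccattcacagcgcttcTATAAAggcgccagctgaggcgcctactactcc
Nr4a1: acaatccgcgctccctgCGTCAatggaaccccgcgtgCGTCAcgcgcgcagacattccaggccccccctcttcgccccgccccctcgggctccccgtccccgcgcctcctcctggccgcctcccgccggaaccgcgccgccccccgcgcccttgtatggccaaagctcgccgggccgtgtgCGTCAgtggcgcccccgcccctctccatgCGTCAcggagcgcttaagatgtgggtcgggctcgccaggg
Jun: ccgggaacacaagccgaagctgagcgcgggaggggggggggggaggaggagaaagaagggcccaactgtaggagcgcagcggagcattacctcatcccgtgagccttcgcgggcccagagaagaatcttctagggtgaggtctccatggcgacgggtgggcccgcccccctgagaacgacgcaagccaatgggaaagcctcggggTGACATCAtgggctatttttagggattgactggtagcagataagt
Egr2: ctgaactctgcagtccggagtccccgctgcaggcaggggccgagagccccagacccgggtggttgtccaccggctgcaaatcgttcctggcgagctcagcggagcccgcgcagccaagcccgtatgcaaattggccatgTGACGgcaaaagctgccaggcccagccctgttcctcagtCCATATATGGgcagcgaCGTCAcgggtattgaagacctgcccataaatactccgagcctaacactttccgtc

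The motifs searched were the core of the cAMP response element, TGACG, its full form TGACGTCA and a looser form TGACNTCA, the AP-1 site TGANTCA, the CArG box bound by serum response factor, the Nr4a site AAAGGTCA, all on both strands, and the TATA box TATAAA on the given strand. The core lies inside the full form, which is a case of the looser form. In 32851 promoter entries of the same length the share with a match was 17.80% for the core, 1.55% for the full form, 7.49% for the looser form, 6.75% for the AP-1 site, 1.47% for the CArG box, 7.59% for the TATA box and 1.34% for the Nr4a site. The Fos window held the core at 129 to 125 and 66 to 62 bases before the start and a TATA box at 33 to 28. The Nr4a1 window held 4 cores, the nearest at 40 to 36 bases before the start. The Jun window held the looser form at 45 to 38 bases. The Egr2 window held a CArG box at 72 to 63 bases between a pair of cores. Of the other members, Fosb and Junb held 1 core each and Nr4a2 held 4, while Fosl2 and Jund held none of the motifs searched. No window of the 9 genes held the full form, the AP-1 site or the Nr4a site. The motifs were chosen with these sequences in view, and a match describes letters only.

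By likeness over the 9 brains, Nr4a1 ranked 8th for Fos and Fos ranked 5th for Nr4a1 among 6766 other named probe sets. Jun ranked 5th for Egr2, and Egr2 ranked 25th for Jun. The 3 probe sets most like Fos were those of Dab2 (r = 0.947), Dcaf12 (0.905) and Gata2 (0.900). The 3 most like Jun were Cacng2 (0.973), Rac1 (0.952) and Pithd1 (0.936), and those most like Egr2 were Smarce1 (0.909), Slc1a2 (0.897) and Pla2g12a (0.890). Top3a (0.908), Mthfd2 (0.884) and Kctd9 (0.872) were most like Nr4a1. For Jund they were Cep350 (0.951), Tpsb2 (0.927) and Klf3 (0.898), and for Junb 102363_r_at Prkd2 (0.940), Rxrb (0.931) and Mettl7a1 (0.930). For Fosb they were Smarcc1 (0.956), Nfic (0.947) and Gosr2 (0.917), for Fosl2 Csnk2a2 (0.934), Mrps25 (0.907) and Rab3il1 (0.903), and for Nr4a2 92248_at Ndufs4 (0.957), Ermp1 (0.939) and Aebp1 (0.926). The values of a brain all come from 1 array and share its scaling, and with 9 brains and 6766 probe sets compared such values describe these brains only.

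Other genes that respond to the same stimuli were counted beside the members. Of 33 tested genes on a list of activity-induced genes, 0 passed the adjusted threshold in either direction between null and wild-type, and before adjustment 3 were higher and 1 lower in null brains, with a median log2 difference of 0.03. Over all tested probe sets 13.4% were higher and 9.69% lower, and the median was also 0.03. With the male null brains left out 1 was higher and 0 lower, where 3.54% of all were either, with a median of 0.05. The highest difference was that of Ier3, a stress-induced early response gene, at 133 ± 101 in null brains and 41.0 ± 10.8 in wild-type brains (log2 difference 1.57, limma adjusted p = 0.0852). Rasgrp1, an activator of Ras, followed at 1.19 and Inhba, which encodes an activin subunit, at 0.65. The lowest were Sgk1, a kinase induced by glucocorticoids, at -0.49, the neurotrophin gene Bdnf at -0.49 and Gadd45b at -0.47. Without the male null brains Ier3 had a log2 difference of 0.22, Rasgrp1 0.82, Sgk1 0.21 and Bdnf 0.18.

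Dimer partners and relatives of AP-1 and of the cAMP response element binding protein gave 2 higher and 1 lower of 11 tested genes before adjustment, with a median log2 difference of 0.10. The kinases and other activators upstream gave 4 higher and 2 lower of 26, with a median of 0.08. Known targets of these factors in brain gave 3 higher and 0 lower of 15, with a median of 0.06. These counts stand against the same 13.4% higher and 9.69% lower over all tested probe sets. When the male null brains were left out, the counts before adjustment were 0 higher and 0 lower of the partners, 1 higher and 0 lower of the upstream genes and 1 higher and 1 lower of the targets (limma), against 3.54% of all in either direction. The medians were then 0.13, -0.02 and 0.14. None of these genes passed after adjustment in the comparison of null with wild-type over all brains (limma).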

How the data were processed

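The authors deposited 1 intensity per probe set and array, linear MAS5 signals per the submitters' processing notes, for 12488 probe sets on 11 arrays. The MAS5 version and settings are not given in the sources used here. The arrays had equal trimmed means of 150.1 (2% trimmed from either end), and the deposited intensities were used as scaled. Depth does not apply to arrays, and the number of arrays limits the precision. Symbols came from the platform annotation, and only probe sets with 1 gene were named. The 66 control probe sets were left out.

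Signals under the 10th percentile (3.1) were raised to it and log2 values taken. Probe sets under the 40th percentile of mean log2 signal (4.69, a signal of 25.8) were not tested, which left 7453. limma 3.58.1 in R 4.3.3 (lmFit, eBayes with a variance trend, Benjamini-Hochberg adjustment) tested genotype (null minus wild-type) and sex (female minus male), each adjusted for the other, and their interaction. The model was run on simulated data with independent normal noise for each probe set. Those data held no shared differences between arrays, so the run does not cover the male null arrays. Mice are taken as separate animals from their numbers. Correlations were computed in Python 3.11.15 with numpy 2.4.6 over all orderings of 9 brains, two-sided. The text names all member probe sets, the 3 most similar probe sets of each member, and the 3 highest and 3 lowest of the activity-induced list. The members and lists were chosen with earlier results of these data known. Alternatives covered scaling, floor, pseudocount, filter, covariates, B4 animals alone and each brain left out.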

Additional observations from a re-analysis of the deposited data

Results flagged for a closer look

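For Nr4a2 92248_at the genotype difference was unequal between the sexes by a test of that difference, the interaction of genotype and sex (female minus male -1.70 on the log2 scale, limma adjusted p = 0.0435), with 15.9% of all tested probe sets past the same threshold. In females the difference between null and wild-type was 0.08 ± 0.38 and in males 1.78 ± 0.36. The other probe set of the gene had -0.94 (limma adjusted p = 0.392). The male null side holds 2 brains, both on the arrays with the low ratio of Gapdh 3′ over 5′ signal. Sex within the null mice and that array difference cannot be told apart. The call for 92248_at was lost in 12 of the alternatives tried. No brain was flagged within its genotype by the gap test over 22 groups of values of the tested probe sets. That test left both male null brains unflagged although they lay above all others for this gene. It therefore cannot show that no brains stood apart together.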

How the results depend on the processing

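No paired analysis was possible because the mice carry no replicate numbers shared between the groups. All values are log2 differences unless called counts or r, sex differences are female minus male, and the cause of each change was not tested. Of 867 repeats 777 were counted as unchanged. For log2 differences this meant the same sign and the same side of the adjusted threshold. For counts and for r it meant a value equal or close to the main one. The threshold played no part for r. Leaving out each of the 9 brains in the correlations, and using the other Junb and Nr4a2 probe sets there, were chosen after seeing the data.

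The sign of some small genotype differences turned. With the Gapdh ratio as a covariate Fos had -0.055, Fosb -0.29 and Fosl2 0.73. Without the male null brains Fosb had -0.083 and Fosl2 0.33. Fosb had -0.018 under median centring, which moved the median of all tested probe sets to -0.15, against 0.03. With age as a covariate Fosb had -0.072 and Egr2 0.30, and with the letters of the mouse numbers as a block Fosb had -0.012 and Egr2 0.14. Among B4 animals Egr2 had 0.10. Leaving out single brains, Fosl2 ranged from -0.41 to 0.20.

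Sex differences turned sign as follows. Fosb had 0.00016 under median centring, 0.038 with the Gapdh ratio and 0.034 without the male null brains. Jun had -0.039 with no covariate, -0.12 with age and -0.013 without the male null brains. Jund had -0.12 under quantile normalisation, -0.13 with no covariate, -0.15 with the Gapdh ratio and -0.21 without the male null brains. Nr4a2 92248_at had 0.26 without the male null brains. Leaving out single brains, Jun ranged from -0.017 to 0.067 and Jund from -0.12 to 0.15.

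The count of members past the adjusted threshold for genotype ranged from 0 to 3 without single brains. Before adjustment it was 2 with the 60th percentile filter or no covariate, 1 with the Gapdh ratio or without the male null brains, and 2 to 6 without single brains. For sex the count before adjustment was 6 with age as a covariate and 3 to 5 without single brains. For the interaction the adjusted count was 0 under quantile normalisation, median centring, no filter, the Gapdh ratio and the 60th percentile filter, which leaves Nr4a2 92248_at out, and 0 to 1 without single brains. In males it was 1 with the 60th percentile filter, 0 with the Gapdh ratio, and 1 to 3 without single brains. The count of correlated pairs ranged from 0 to 2 without single brains. The signals of Fosl2, Nr4a2 and the weaker Fos probe set lie near the filter or the floor, which limits their precision, and leaving out a female wild-type brain leaves 1, assumed to vary like the other groups.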
